A study of Mus musculus with 12 samples.

Results

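The secreted WNT antagonists are a group of genes whose products act outside the cell or at its surface to lower WNT signalling. The 10 genes described here, Sfrp1, Sfrp2, Sfrp4, Wif1, Notum, Dkk2, Dkk3, Kremen1, Sostdc1 and Apcdd1, were found by symbol among the 25210 genes of the deposited count table. They were measured in primary mammary organoids, small pieces of mammary epithelium grown in a gel of growth-factor-reduced Matrigel in minimal medium, from virgin FVB/N female mice of 8 to 11 weeks. All cultures were kept for 7 days, either in the vehicle DMSO or in 1 of 3 doses of CHIR99021 (1, 1.5 and 3 µM). This compound blocks GSK3, a kinase, and so stabilises β-catenin, the intracellular messenger of the WNT pathway. There were 3 cultures, each from a different animal and each split over all 4 treatments, which gave 12 libraries of polyadenylated RNA, 3 per treatment. The culture number is the replicate number of the labels. No genetic change was made in any group. The drug acts on every cell of a culture, so a bulk library does not say which cells of the organoid carry a change.

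WNT proteins are bound outside the cell by Frizzled receptors and the co-receptors Lrp5 and Lrp6, after which β-catenin enters the nucleus and works with TCF/LEF factors on target genes. The antagonists act above that point. Secreted frizzled-related proteins (Sfrp1, Sfrp2, Sfrp4) and Wif1 bind WNT proteins themselves, Notum is an enzyme that removes the lipid WNT proteins need, and Dkk2 and Sostdc1 bind Lrp co-receptors. Kremen1 is a membrane receptor of Dickkopf proteins and Apcdd1 is a membrane glycoprotein that binds WNT and Lrp5, so neither of these is secreted in spite of the group's name. Dkk3 is a divergent Dickkopf protein whose part in WNT signalling is less clear. Several antagonists are also targets of β-catenin in some tissues, and WNT signalling is needed in the mammary gland for duct formation and for the basal cell layer.

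In the deposited table, on the mouse assembly GRCm38, Wif1 lies on chromosome 10 from 121033960 to 121100650 and Sfrp2 on chromosome 3 from 83766321 to 83774316, both on the plus strand. These are shown by sequence because they moved in opposite directions below and because their upstream stretches are in the RefSeq promoter table (GRCm38.p6), which held 3 of the 10 genes (Wif1, Sfrp2 and Dkk2). Capitals mark CTTTG, or CAAAG on the other strand, the core of 5 bases that TCF/LEF factors recognise. The stretches run 5′ to 3′ on the plus strand and end before the annotated start of the gene.
Wif1, chr10:121033754-121033959: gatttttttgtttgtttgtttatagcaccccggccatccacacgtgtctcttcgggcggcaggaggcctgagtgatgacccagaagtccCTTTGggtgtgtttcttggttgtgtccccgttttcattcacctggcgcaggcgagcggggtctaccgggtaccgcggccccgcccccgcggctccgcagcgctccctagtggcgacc
Sfrp2, chr3:83766071-83766320: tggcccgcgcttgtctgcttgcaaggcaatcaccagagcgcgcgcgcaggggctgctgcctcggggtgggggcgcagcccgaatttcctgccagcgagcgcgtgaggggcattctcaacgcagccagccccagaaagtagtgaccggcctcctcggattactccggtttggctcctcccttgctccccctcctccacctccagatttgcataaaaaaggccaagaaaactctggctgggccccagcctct
The Wif1 stretch of 206 bases held 1 core, 117 bases before the GENCODE M21 start and 161 bases before the RefSeq start. The Sfrp2 stretch of 250 bases held 0, and the 250 bases before Dkk2 held 1. A core was present in 48.6% of the 250-base upstream windows of all 32851 promoters in the table. The longer forms CTTTGAT and CTTTGAA, searched on both strands in windows of 300 bases, were found in none of these 3 promoters and in 8.7% of all promoters. A match describes letters in a window and does not show that a factor is bound there.

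Library totals ran from 10.1 M counts (M, mega) in DMSO culture 2 to 24.5 M in 1.5 µM culture 2. Levels are given as counts per M (CPM) of the library total after edgeR's TMM scaling, and differences as log2 fold changes ± standard error (SE). A gene is called when its adjusted p is under 0.05 in edgeR's quasi-likelihood test over all 12 libraries, with Benjamini-Hochberg adjustment over 15316 genes. Since each animal gave 1 library per treatment, the same test with the culture as a block is given for the antagonists wherever it changes a call. For the other gene lists it is given in some comparisons only, and it changed calls in others as well. Of the 10 antagonists, 9 passed the filter on low counts and Sfrp4 did not.

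**Figure D1:**
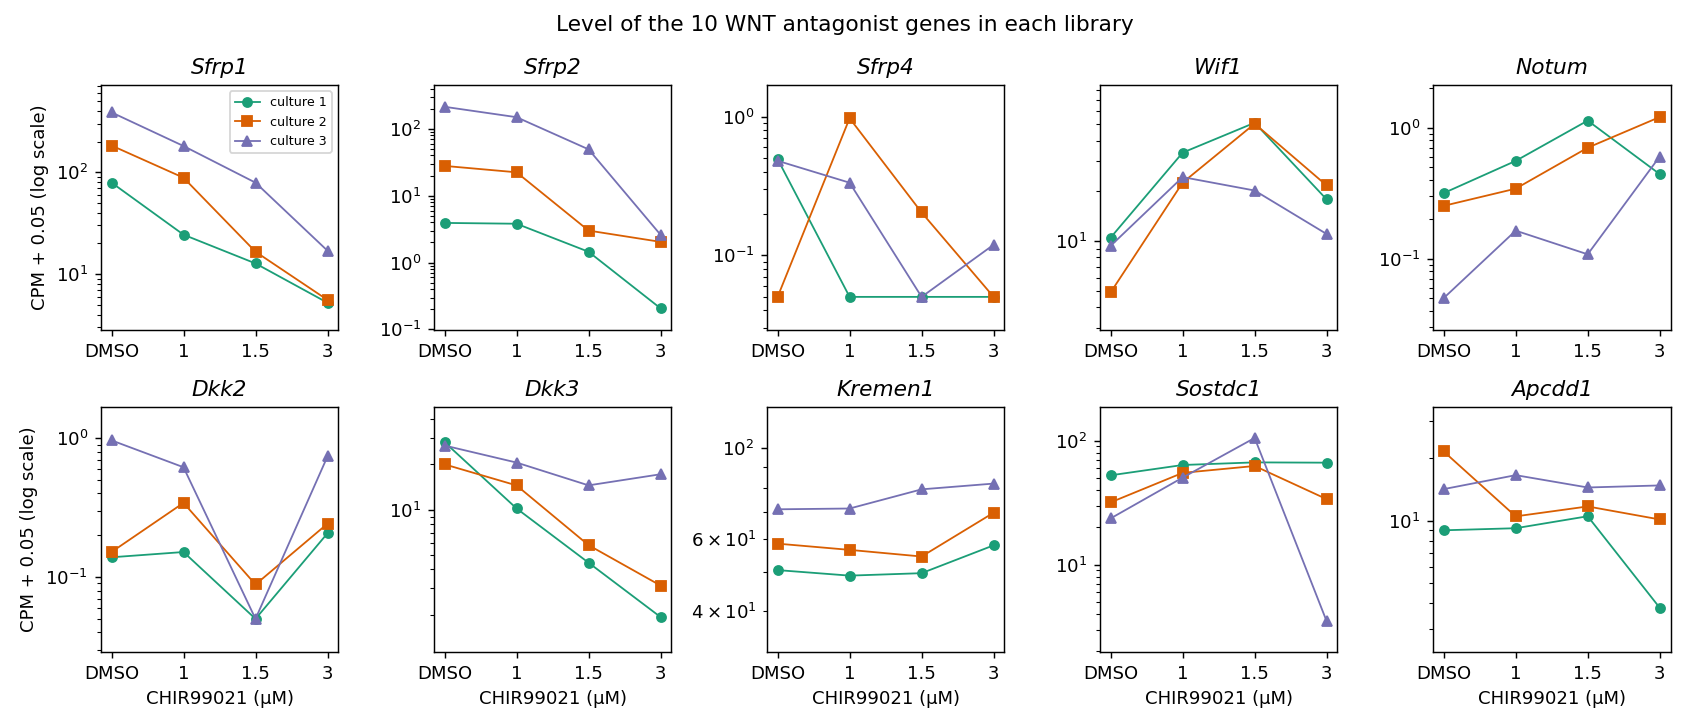
Level of each of the 10 genes (CPM plus 0.05, log scale) against the CHIR99021 dose, 1 line per culture, 1 point per library. Sfrp1 and Sfrp2 are lower at each higher dose in all 3 cultures, though the Sfrp2 step at 1 µM was not called. Wif1 is above DMSO at every dose, and Kremen1 stays between 48.8 and 82.0 CPM.

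Sfrp1 and Sfrp2 were lower at 3 µM than in DMSO, and Wif1 was higher at 1.5 µM than in DMSO. At 3 µM against DMSO, the fit without the block called 2 of the 9 tested antagonists, both lower (Sfrp1 and Sfrp2). Of all tested genes it called 57.5%, 29.9% higher and 27.7% lower. The fit with the culture as a block called 6, 3 higher and 3 lower, against 68.9% of all genes. At 1.5 µM the fit without the block called 1, Wif1, which was higher, against 27.3% of all genes, 15.4% higher and 11.8% lower. With the block 5 were called, 1 higher and 4 lower, against 46.7% of all genes.

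At 1 µM 0 of 9 were called by edgeR, against 0.242% of all genes, 0.189% higher and 0.0522% lower. At that dose 1 antagonist (Wif1) had an unadjusted p under 0.05 and DESeq2 called 1 (Wif1). From 1 to 1.5 µM edgeR and DESeq2 called 0 of 9, with 1 (Dkk2) at an unadjusted p under 0.05, against 5.43% of all genes called by edgeR, 4.43% higher and 0.992% lower. Between 1.5 and 3 µM edgeR called Wif1 alone, and it was lower, against 29.7% of all genes, 17.0% higher and 12.7% lower.

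With the culture as a block, 2 antagonists were called at 1 µM (5.61% of all genes), 5 at 1.5 µM (46.7%), 6 at 3 µM (68.9%), 3 from 1 to 1.5 µM (21.9%) and 5 from 1.5 to 3 µM (46.7%). At 3 µM these 6 were Sfrp1, Sfrp2 and Dkk3, lower, and Wif1, Notum and Kremen1, higher. Notum passed the filter on low counts through treated libraries only. The median log2 fold change of the 9 tested antagonists was −0.27 at 1 µM, −0.28 at 1.5 µM and −0.14 at 3 µM, beside −0.00, −0.00 and −0.03 over all genes. The 3 comparisons with DMSO share the DMSO libraries, so their values are not independent of each other.

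**Figure D2:**
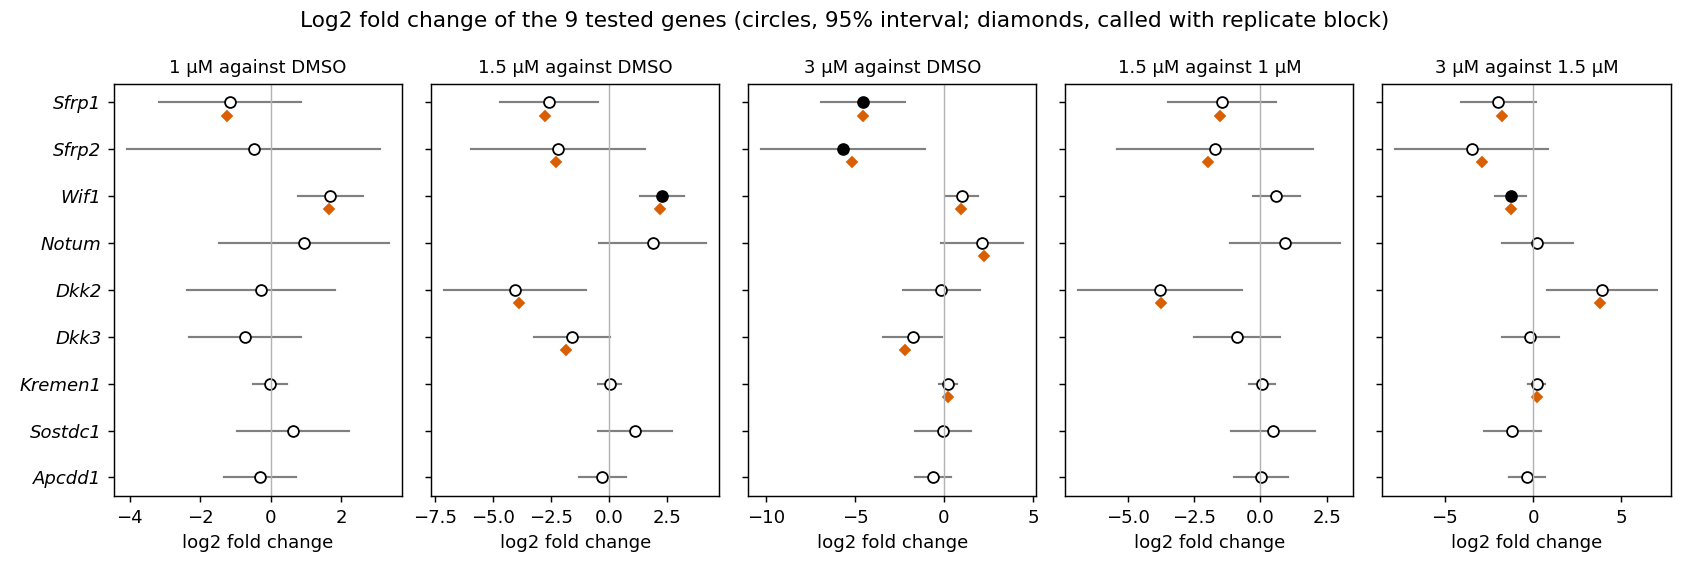
Log2 fold change (x axis, a different range in each panel) of the 9 tested genes in 5 comparisons. Circles are the values without a block, with 95% intervals, filled where called. Diamonds are the values with the culture as a block, drawn only where that fit called the gene. The filled circles are Sfrp1 and Sfrp2 at 3 µM and Wif1 at 1.5 µM and from 1.5 to 3 µM.

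Sfrp1, a secreted protein that binds WNT through a Frizzled-like domain, was lower at each higher dose in every culture. It lies on chromosome 8 from 23411502 to 23449632. In DMSO its level was 79.1, 183 and 387 CPM in cultures 1, 2 and 3. At 1 µM it was 24.3, 88.3 and 181 CPM, at 1.5 µM 12.7, 16.5 and 79.0 CPM, and at 3 µM 5.17, 5.51 and 16.9 CPM. The groups did not overlap with DMSO at 1.5 and 3 µM. At 3 µM Sfrp1 was 23.5-fold lower than in DMSO (log2 fold change −4.55 ± 1.05 SE, adjusted p = 0.00415 by edgeR), and it was called in 12 of 12 fits that left out 1 library. Leaving out all 4 libraries of culture 2 gave −4.40 with an edgeR adjusted p of 0.0803. In bulk RNA, fewer cells that express a gene and less RNA per cell cannot be told apart.

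The steps of Sfrp1 below 3 µM passed the test with the block. At 1.5 µM the log2 fold change was −2.59 ± 0.95 (edgeR adjusted p = 0.0670, with block −2.77 and 0.000201). DESeq2 called it with an adjusted p of 0.0269, and so did edgeR without culture 3 at 1.5 µM (−3.88, adjusted p = 0.0244). At 1 µM it was −1.15 ± 0.90 (adjusted p = 0.689, with block −1.24 and 0.0409). With the block Sfrp1 was also lower from 1 to 1.5 µM (−1.53, adjusted p = 0.00879) and from 1.5 to 3 µM (−1.77, adjusted p = 0.00270).

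Sfrp2, a second WNT-binding protein of the same family, is widely made by fibroblasts. Its level in DMSO was 3.86, 27.8 and 213 CPM in cultures 1, 2 and 3, and at 1 µM 3.75, 22.3 and 149 CPM. At 1.5 µM it was 1.40, 2.96 and 49.2 CPM and at 3 µM 0.157, 1.99 and 2.55 CPM, the last from 2, 31 and 37 counts. Culture 3 was the highest at every dose, and the level was lower at each higher dose within every culture. The step at 1 µM was not called (log2 fold change −0.49 ± 1.61, edgeR adjusted p = 0.948, with block −0.33 and 0.685). At 3 µM no library overlapped with DMSO.

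At 3 µM Sfrp2 had a log2 fold change of −5.67 ± 2.07 against DMSO (edgeR adjusted p = 0.0374), a 51.0-fold lower level. In fits with no block this call was lost without DMSO culture 3 (−3.32, adjusted p = 0.165) and without 3 µM culture 1, 2 or 3 (adjusted p = 0.105, 0.0967 and 0.0757), and with no filter on low counts (0.0828). Without culture 2 or culture 3 in all groups the adjusted p was 0.169 and 0.0582. The block left it called, with −5.19 and an adjusted p of 8.29e-05. With the block it was also lower at 1.5 µM (−2.30, adjusted p = 0.00364, against 0.358 without), from 1 to 1.5 µM (−1.97, 0.0180) and from 1.5 to 3 µM (−2.89, 0.00643).

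The sum of fibroblast markers was lower at 1.5 and 3 µM too. The summed level of 10 fibroblast markers (Col1a1, Col1a2, Col3a1, Dcn, Lum, Pdgfra, Pdgfrb, Dpt, Fbln1 and Mmp2) was 1789, 7895 and 21556 CPM in DMSO cultures 1, 2 and 3, 1807, 7056 and 20785 CPM at 1 µM, and 211, 1140 and 5272 CPM at 3 µM. Col1a1, Col1a2 and Col3a1 made up most of the sum in DMSO, at 2251, 2423 and 4257 CPM on average. Dcn ran from 38.7 to 624 CPM in DMSO and from 13.9 to 1071 CPM at 3 µM. Fbln1 averaged 31.7 CPM in DMSO and 27.6 CPM at 3 µM. At 1 µM the median log2 fold change was 0.0021 for the fibroblast markers and −1.01 for 5 endothelial markers. Sfrp1 was lower in all 3 cultures at that dose. The fibroblast sum was highest in culture 3 and lowest in culture 1 at every dose, as were Sfrp1 and Sfrp2. No fibroblast marker was at 0 in any library. At 3 µM 1 of the 10 markers (Dpt) was called lower, against 27.7% of all genes. With the block 8 were lower, where 68.9% of all genes were called in either direction. The part of these cells in the Sfrp1 and Sfrp2 values was not tested. Gm26771, an antisense gene, overlaps Sfrp2 exons, and whether the authors' counting used the strand is not given in the sources used here, so Sfrp2 counts are uncertain to that extent.

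Sfrp4, the third family member, was near the limit of detection. Its counts were 10, 0 and 8 in DMSO, 0, 19 and 5 at 1 µM, 0, 4 and 0 at 1.5 µM, and 0, 0 and 1 at 3 µM. The DMSO and 3 µM libraries overlapped, since DMSO culture 2 had 0 counts. The 3 µM libraries together held 1 count against 18 in DMSO, a ratio of 0.0661 after scaling, with a 95% interval of 0.00159 to 0.418 that covers counting error only. Fitted without the filter, Sfrp4 had an edgeR adjusted p of 0.1495 at 3 µM.

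Wif1, which binds WNT proteins through its own WIF domain, was the only antagonist called higher in the edgeR fit of all 12 libraries without the block. With the block Notum and Kremen1 were also called higher at 3 µM, and Dkk2 and Kremen1 from 1.5 to 3 µM. In DMSO Wif1 was at 10.4, 4.87 and 9.31 CPM in cultures 1, 2 and 3. It was at 33.8, 22.3 and 24.1 CPM at 1 µM, at 51.1, 50.5 and 20.03 CPM at 1.5 µM, and at 17.7, 21.5 and 11.0 CPM at 3 µM. Every treated library was above every DMSO library. Cultures 1 and 2 were highest at 1.5 µM, and culture 3 at 1 µM.

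At 1.5 µM Wif1 was 4.89-fold higher than in DMSO (log2 fold change 2.29 ± 0.42, edgeR adjusted p = 0.00362), and the call was held in 12 of 12 fits without 1 library. Without culture 1 or culture 2 in all groups the adjusted p was 0.0529 and 0.104. At 1 µM the log2 fold change was 1.69 ± 0.41 (adjusted p = 0.141, with block 0.0357, by DESeq2 0.00470). At 3 µM it was 1.01 ± 0.41, a 2.02-fold higher level (adjusted p = 0.0551, with block 0.0408, by DESeq2 0.0365). Without 1.5 µM culture 3 or 3 µM culture 3 the adjusted p at 3 µM was 0.0219 and 0.0330.

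Wif1 was then lower at 3 than at 1.5 µM in all 3 cultures, with a log2 fold change of −1.28 ± 0.40 (edgeR adjusted p = 0.0382, with block 0.0164). This call was held in 5 of 12 fits without 1 library. It was lost without 1 µM culture 2 (adjusted p = 0.0522) or 3 (0.0502), 1.5 µM culture 1 (0.113) or 2 (0.117), and 3 µM culture 1 (0.0847), 2 (0.0562) or 3 (0.0915). The 1.5 and 3 µM libraries overlapped, because culture 3 was at 20.03 CPM at 1.5 µM and culture 2 at 21.5 CPM at 3 µM.

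Notum, the WNT deacylase, was detected at few counts and is known as a target of β-catenin in other tissues. It had 6, 2 and 0 counts in DMSO cultures 1, 2 and 3, 10, 6 and 2 at 1 µM, 17, 17 and 1 at 1.5 µM, and 5, 18 and 8 at 3 µM. Within every culture the level was higher than in DMSO at each dose. At 3 µM the 31 counts against 8 in DMSO gave a ratio of 4.61 after scaling, with a counting interval of 2.07 to 11.6. The log2 fold change was 2.14 ± 1.04 (edgeR adjusted p = 0.103, with block 2.27 and 0.0298). At 1.5 µM it was 1.89 ± 1.04 (adjusted p = 0.201, with block 0.0883). Notum reached 10 counts only in treated libraries, with at most 6 in DMSO. It passed the filter on low counts through groups where it was higher, so its call with the block is not independent of the filter. The antisense genes Notumos and Myadml2os overlap exons of Notum, with the same uncertainty over strand as for Sfrp2.

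The 2 Dickkopf genes had different patterns. Dkk3 was at 28.1, 19.99 and 26.7 CPM in DMSO cultures 1, 2 and 3, and at 10.1, 14.5 and 20.6 CPM at 1 µM. It was at 4.39, 5.76 and 14.5 CPM at 1.5 µM and at 1.88, 3.08 and 17.2 CPM at 3 µM. All 3 cultures were below their own DMSO library at every dose, and at 1.5 and 3 µM no library overlapped with DMSO. At 3 µM culture 3 stood apart from cultures 1 and 2.

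Dkk3 had a log2 fold change of −1.76 ± 0.74 at 3 µM (edgeR adjusted p = 0.0651, with block −2.21 and 0.00406, by DESeq2 0.0210). Without 3 µM culture 3 it was −3.34 with an adjusted p of 0.00116. At 1.5 µM it was −1.61 ± 0.74 (adjusted p = 0.130, with block 0.0128, without 3 µM culture 3 0.0233). Between 1.5 and 3 µM the value of −0.15 ± 0.73 (adjusted p = 0.896) depended on single libraries. It became −1.71 (0.0384) without 3 µM culture 3, and 0.31, 0.23 and 0.54, none of them called, without 3 µM culture 1, 3 µM culture 2 or 1.5 µM culture 3. The summed fibroblast markers were highest in culture 3 at every dose, and their part in the Dkk3 values was not tested.

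Dkk2, a ligand of Lrp5 and Lrp6, was at few counts: 2, 1 and 17 in DMSO cultures 1, 2 and 3, 2, 6 and 10 at 1 µM, 0, 1 and 0 at 1.5 µM, and 2, 3 and 10 at 3 µM. It was lowest at 1.5 µM and back near the DMSO level at 3 µM. Dkk2 passed the filter on low counts through culture 3 of the other groups, so its calls involving 1.5 µM are not independent of the filter. The 1.5 µM libraries held 1 count against 20 in DMSO, a ratio of 0.0432 with a counting interval of 0.00104 to 0.270 (edgeR adjusted p = 0.0516, with block 0.00534, by DESeq2 0.0338). Without DMSO culture 1 or 3 µM culture 3 the adjusted p was 0.0318 and 0.0420. From 1.5 to 3 µM the ratio was 20.7, with a counting interval of 3.18 to 870 (adjusted p = 0.0597, with block 0.00701). From 1 to 1.5 µM Dkk2 was lower with the block only (adjusted p = 0.149, with block 0.0155). At 3 µM against DMSO the ratio was 0.892, with an interval of 0.425 to 1.83.

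Kremen1, the Dickkopf receptor, was the steadiest of the group across doses. Its level was 50.4, 58.4 and 70.9 CPM in DMSO cultures 1, 2 and 3, 48.8, 56.4 and 71.2 CPM at 1 µM, 49.5, 54.4 and 79.4 CPM at 1.5 µM, and 57.9, 69.6 and 82.0 CPM at 3 µM. Culture 1 was the lowest and culture 3 the highest at every dose, and all groups overlapped. At 3 µM the log2 fold change was 0.22 ± 0.22, with a 95% interval of −0.26 to 0.70 (edgeR adjusted p = 0.402). With the block it was 0.22 ± 0.07 and called higher (adjusted p = 0.0187), as it was from 1.5 to 3 µM (0.21, adjusted p = 0.0361). At 1 and 1.5 µM the values were −0.03 ± 0.22 and 0.03 ± 0.22. The snRNA gene Gm25142 lies opposite Kremen1 without sharing an exon.

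Sostdc1, which binds Lrp co-receptors and also bone morphogenetic proteins, was above DMSO at 1 and 1.5 µM in all cultures, which did not pass the test, and spread widely at 3 µM. It was at 52.5, 31.8 and 23.6 CPM in DMSO cultures 1, 2 and 3, at 63.6, 55.0 and 50.4 CPM at 1 µM and at 66.8, 62.5 and 105 CPM at 1.5 µM. At 3 µM it was at 66.4, 33.7 and 3.45 CPM, so culture 3 went from the highest library at 1.5 µM to the lowest of all 12. At 1.5 µM no library overlapped with DMSO, and the log2 fold change was 1.12 ± 0.72 (edgeR adjusted p = 0.272, without 3 µM culture 3 1.09 and 0.0437). At 3 µM it was −0.06 ± 0.72, with an interval of −1.66 to 1.53 (adjusted p = 0.945). Leaving out 3 µM culture 3 or DMSO culture 1 turned it to 0.45 and 0.32, neither of them called.

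Apcdd1 overlapped between all groups. It was at 8.92, 21.4 and 14.1 CPM in DMSO cultures 1, 2 and 3, at 9.13, 10.4 and 16.5 CPM at 1 µM, at 10.4, 11.6 and 14.4 CPM at 1.5 µM, and at 3.76, 10.1 and 14.7 CPM at 3 µM. The lowest library was 3 µM culture 1. At 3 µM the log2 fold change was −0.63 ± 0.46, with an interval of −1.66 to 0.40 (edgeR adjusted p = 0.263, with block 0.0753). At 1 and 1.5 µM it was −0.30 ± 0.46 and −0.28 ± 0.46.

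To compare levels between genes, CPM were divided by the length of all annotated exons of each gene in kilobases (CPM per kb), which runs from 1.78 kb for Sostdc1 to 12.9 kb for Apcdd1. The GENCODE M21 end of Apcdd1 (62961179) lies past its end in the deposited table (62953195). Its length may thus include bases that were not counted, so its CPM per kb may be too low and its place in the order is uncertain. In DMSO the order by mean was Sfrp1 (49.5 ± 35.9 CPM per kb, SD, n = 3), Sfrp2 (37.9 ± 53.2) and Sostdc1 (20.2 ± 8.38), whose ranges overlapped. Kremen1 (7.76 ± 1.34) and Dkk3 (7.42 ± 1.29) followed and overlapped with each other, then Wif1 (3.38 ± 1.21), Apcdd1 (1.15 ± 0.487), and Dkk2, Sfrp4 and Notum, each at most 0.247 CPM per kb in any DMSO library. The place of Sfrp2 rested on culture 3, since it was at 1.79, 12.9 and 99.0 CPM per kb in cultures 1, 2 and 3. In culture 1 it was below Kremen1 (6.52), Dkk3 (8.37) and Wif1 (4.30).

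This order changed with dose. Sfrp1 held 26.0, 46.6 and 39.7% of the group's summed CPM per kb in DMSO cultures 1, 2 and 3, and 2.17, 3.06 and 13.4% at 3 µM. Sostdc1 ranked first by mean at 1, 1.5 and 3 µM, at 31.6 ± 3.78, 43.9 ± 13.2 and 19.4 ± 17.7 CPM per kb, and at 1.5 µM its range was above that of the next gene, Wif1 (16.7 ± 7.32). At 3 µM the means of Sostdc1, Kremen1 (9.04 ± 1.56) and Wif1 (6.89 ± 2.20) came first, with overlapping ranges.

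The summed level of the 10 genes was 128 ± 83.5 CPM per kb in DMSO (range 69.5 to 223), 105.5 ± 52.8 at 1 µM (67.3 to 166), 88.7 ± 30.5 at 1.5 µM (71.0 to 124) and 41.5 ± 12.8 at 3 µM (28.8 to 54.4). The 3 µM libraries lay below all DMSO libraries. Culture 3 had the highest sum in DMSO and the lowest at 3 µM. These sums were not tested.

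**Figure D3:**
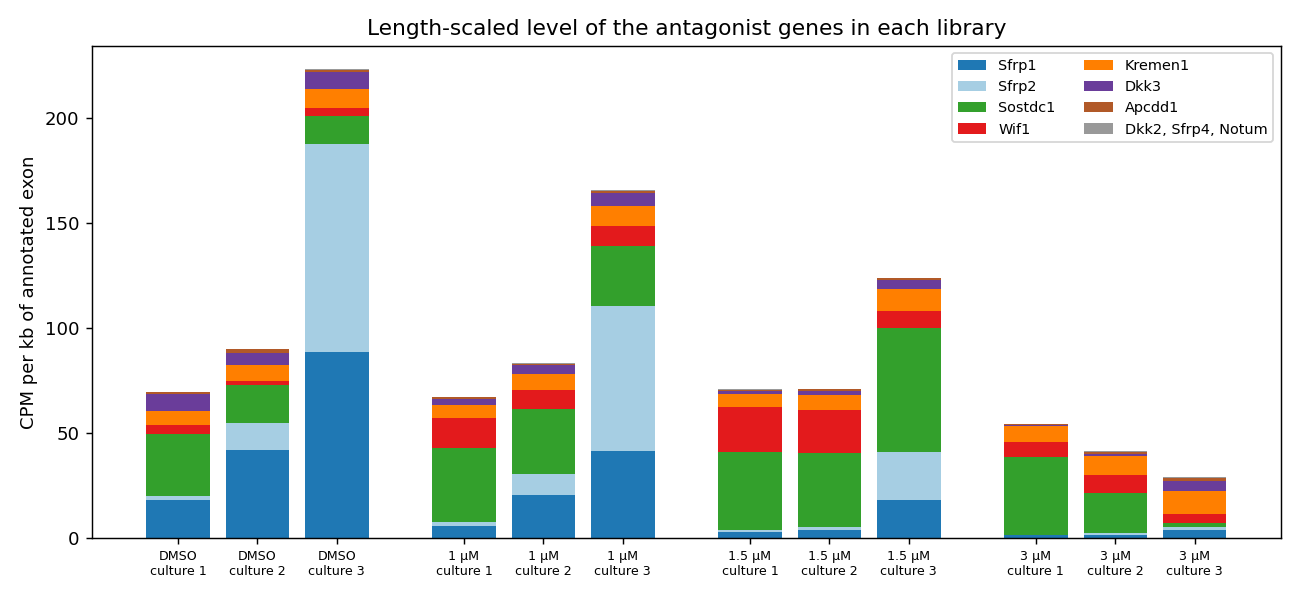
Stacked bars of CPM per kb of annotated exon for each library, coloured by gene, with Dkk2, Sfrp4 and Notum summed. The Sfrp1 and Sfrp2 parts make up most of DMSO culture 3 and little of any 3 µM library.

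The cultures themselves differed in 4 of the 9 tested antagonists, in a model with treatment and culture (edgeR), against 28.8% of all genes. DESeq2 called 6. Sfrp2 was higher in culture 3 than in culture 1 by 5.37 on the log2 scale (edgeR adjusted p = 0.000304), Sfrp1 by 2.45 (0.000920), Dkk2 by 2.60 (0.0147) and Kremen1 by 0.56 (0.000902). Dkk2 reached 10 counts only in culture 3 (17, 10 and 10 in DMSO, 1 and 3 µM), with at most 6 in cultures 1 and 2. It passed the filter through the culture where it was highest, so its call between cultures is not independent of the filter. The number called was 3 without 1 µM culture 1, and 5 without DMSO culture 3, 3 µM culture 1 or 3 µM culture 3. For Sfrp1 and Sfrp2 the SE of the log2 fold change at 3 µM was 1.05 and 2.07 without the block and 0.34 and 0.62 with it. Whether the dose response differed between cultures was tested as a slope per µM. edgeR called 0 antagonists and 0 of all 15316 genes (0% of those tested), with 1 antagonist and 1230 genes at an unadjusted p under 0.05, while DESeq2 called 224 genes, among them Dkk3 (adjusted p = 0.00401, edgeR 0.364). The Dkk3 slopes were −1.34, −0.95 and −0.21 log2 units per µM in cultures 1, 2 and 3.

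The genes whose log2 CPM followed each antagonist most closely over the 12 libraries were taken from 12438 or 12439 tested genes with a mean of at least 50 counts. For Sfrp1 these were Fli1 and Mef2c (Pearson r 0.987 for both), for Sfrp2 F13a1 (0.990) and Msr1 (0.985), and for Dkk3 St6galnac4 (0.973) and Peak1 (0.972). For Wif1 they were Cnppd1 (0.969) and Armc10 (0.962), for Sostdc1 D3Bwg0562e (0.946), and for Notum Kif1c (0.963) and Bcl2l1 (0.940). For Kremen1 they were Slc15a3 (0.981) and Pdlim4 (0.976), for Apcdd1 BC068281 (0.931), and for Dkk2 Scnn1g (0.862) and Cd33 (0.852). These are the highest of many values over libraries that share animals and doses, and they describe likeness of pattern only.

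Among other antagonists of the pathway, Igfbp4 was the most abundant in DMSO, at 327 ± 123 CPM (SD, n = 3). Of 14 further genes listed, 13 were in the table and 6 were tested. Dkk1, Dkk4, Sost, Cer1, Shisa3, Sfrp5 and Kremen2 were not tested. At 3 µM 1 was called higher and 2 lower, against 29.9% and 27.7% of all genes. Dkkl1, a Dickkopf-like gene, rose by a log2 fold change of 2.105 ± 0.29 (edgeR adjusted p = 0.000194). Whether Dkkl1 lowers WNT signalling was not tested here. Igfbp4, which binds Frizzled and Lrp6 besides insulin-like growth factors, changed by −3.67 ± 0.60 (adjusted p = 0.000561), and Trabd2b, a protease that cleaves WNT proteins, by −2.09 ± 0.36 (adjusted p = 0.000817). Frzb (−1.97 ± 1.48, adjusted p = 0.273, without 3 µM culture 3 −7.65 and 0.0416) and Draxin (−0.27 ± 1.49, adjusted p = 0.884) were not called.

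Shisa2, which holds Frizzled receptors inside the cell, was highest at 1.5 µM. It was higher there than in DMSO (log2 fold change 1.13 ± 0.31, edgeR adjusted p = 0.0211) and lower at 3 than at 1.5 µM (−1.57 ± 0.31, adjusted p = 0.00503). At 3 µM against DMSO it was at −0.44 ± 0.31 (adjusted p = 0.239, without 3 µM culture 1 0.0220). Igfbp4 (−2.15 ± 0.56, adjusted p = 0.0184) and Trabd2b (−1.33 ± 0.35, adjusted p = 0.0198) were lower at 1.5 µM. The 1.5 µM calls of Shisa2, Igfbp4 and Trabd2b were each lost in 3 of 12 fits without 1 library, with adjusted p up to 0.0917, 0.0691 and 0.0770. The libraries were 1.5 µM cultures 1 and 2 and DMSO culture 2 for Shisa2, 1.5 µM cultures 1 and 2 and DMSO culture 3 for Igfbp4, and 1.5 µM cultures 1 and 3 and DMSO culture 2 for Trabd2b. At 1 µM Igfbp4 was called lower with the block only (−0.70, adjusted p = 0.0257, against 0.719 without). Dkkl1 was higher at 3 than at 1.5 µM (1.60 ± 0.29, adjusted p = 0.00304).

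Of the 20 receptors, co-receptors and glypicans that the antagonists or their ligands bind, all were tested. At 3 µM 2 were called higher and 9 lower, and at 1.5 µM 1 higher and 2 lower, beside 57.5% and 27.3% of all genes called in either direction. Over all genes 29.9% were higher and 27.7% lower at 3 µM, and 15.4% and 11.8% at 1.5 µM. With the block 2 were higher and 11 lower at 3 µM (68.9% of all genes in either direction), and 2 higher and 5 lower at 1.5 µM (46.7%). At 1 µM with the block 1 was higher and 1 lower, beside 5.61% of all genes, the last being Fzd4 (−1.07, edgeR adjusted p = 0.0386). Fzd10 was the most raised Frizzled receptor (log2 fold change 2.03 ± 0.43 at 1.5 µM and 4.02 ± 0.45 at 3 µM, edgeR adjusted p = 0.00685 and 4.84e-05), and Fzd4 the most lowered (−2.50 ± 0.28 and −3.38 ± 0.30, adjusted p = 0.000426 and 1.27e-05). The co-receptors to which Dickkopf proteins bind differed: Lrp6 changed by −0.77 ± 0.15 at 3 µM (adjusted p = 0.00130), while Lrp5 was at −0.02 ± 0.11 (adjusted p = 0.892). The difference between Lrp5 and Lrp6 was not tested. Lrp4, a receptor of Sostdc1, was at 0.25 ± 0.18 (adjusted p = 0.247, without 3 µM culture 2 0.0487). The glypicans Gpc4 (−0.72 ± 0.10, adjusted p = 0.000238) and Gpc6 (−1.96 ± 0.41, adjusted p = 0.00240) were lower, as was Fzd1 (−1.64 ± 0.48, adjusted p = 0.0142, lost at 0.0511 without 3 µM culture 2). Without culture 2 in all groups the adjusted p at 3 µM was 0.0603 for Lrp6, 0.0561 for Gpc6 and 0.184 for Fzd1, and without culture 1 or 2 that of Fzd10 at 1.5 µM was 0.0970 and 0.0842.

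The antagonists' WNT ligands and the feedback targets of the pathway moved as follows. Of 19 WNT ligand genes, 14 were tested, with 4 called higher and 1 lower at 1.5 µM and 5 higher and 5 lower at 3 µM. Over all genes 27.3% were called at 1.5 µM and 57.5% at 3 µM. Of 11 feedback targets, 10 were tested, with 4 called higher and 1 lower at 1.5 µM and 5 higher and 2 lower at 3 µM. Axin2, the most general readout of β-catenin activity, was higher by 3.37 ± 0.61 at 1.5 µM and 4.92 ± 0.65 at 3 µM on the log2 scale (edgeR adjusted p = 0.00355 and 0.000147). At 1 µM Axin2 was at 1.98 ± 0.59 (adjusted p = 0.222, with block 0.00887). Lgr5, a receptor of R-spondins in the same list, went the other way. It was at 231, 175 and 155 CPM in DMSO cultures 1, 2 and 3. At 3 µM it was at 0.470, 0.256 and 0.138 CPM, from 6, 4 and 2 counts (edgeR adjusted p = 8.92e-07).

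Markers of other cell types were followed over the same groups. At 3 µM 57.5% of all tested genes were called, 29.9% higher and 27.7% lower, and the counts below stand beside these shares. Epithelial markers (7 genes, summed) were at 3323 to 5750 CPM in DMSO and 16675 to 33294 CPM at 3 µM, and none was at 0 in any library. Krt5 and Krt14 made up most of this sum at 3 µM, at 8627 and 15624 CPM on average. Of the 7, 3 were called higher (Krt5, Krt14 and Krt7) and 2 lower (Krt8 and Krt18) at 3 µM. Of 9 basal or myoepithelial markers, the contractile and receptor genes Acta2, Myh11, Oxtr, Cnn1 and Mylk were called lower at 3 µM and Krt5, Krt14, Krt17 and Trp63 higher. Acta2, for example, was at 326 ± 90.0 CPM in DMSO and 14.0 ± 7.12 CPM at 3 µM. Of 6 luminal hormone-sensing markers 2 were called higher and 3 lower, and of 6 luminal alveolar markers 1 was called lower. Squamous epidermal markers (8 genes) were at 32.8 to 73.8 CPM in DMSO, with up to 3 of them at 0, and at 9176 to 33453 CPM at 3 µM, where all 8 were called higher. Endothelial markers (5 genes) were at 242 to 503 CPM in DMSO, 95.9 to 328 CPM at 1 µM and 27.0 to 86.5 CPM at 3 µM. At 3 µM 5 of 5 were called lower. At 1 µM 0 were called, and 2 were lower with the block, which called 5.61% of all genes. Macrophage markers (5 of 6 listed in the table) were at 424 to 2650 CPM in DMSO and 154 to 320 CPM at 3 µM, with 3 of 5 called lower. Neither list had a marker at 0. The part of these shifts in the antagonists' values was not tested.

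**Figure D4:**
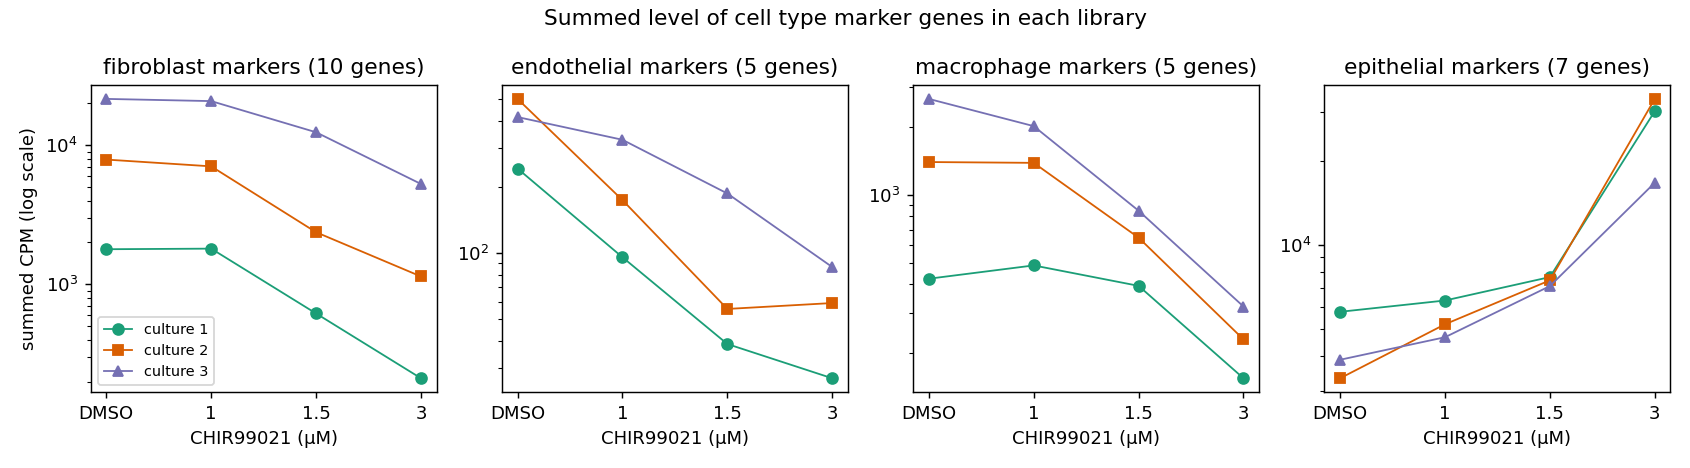
Summed CPM (log scale) of fibroblast, endothelial, macrophage and epithelial markers against CHIR99021 dose, 1 line per culture. Fibroblast sums order the cultures 3, 2, 1 at every dose, the first 3 lists are lower at 3 µM than in DMSO in all cultures, and epithelial sums are highest at 3 µM.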

How the data were processed

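Per the submitters' processing notes, TopHat2 2.1, Bowtie 1.1.0, HTSeq and DESeq2 were used with GRCm38/mm10. Their roles, the annotation release and the strand setting of the counting are not given in the sources used here. The authors deposited unnormalised read counts for each Ensembl gene. A second deposited table holds log2 values, equal to log2 of the count scaled to a total of 10 M (mega) plus 1, and was not used further. All 10 genes were matched by symbol.

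Genes were filtered with filterByExpr on the 4 groups and scaled by TMM. Contrasts were tested in 1 group model over 12 libraries (two-sided quasi-likelihood test, robust glmQLFit and glmQLFTest of edgeR 4.0.16 in R 4.3.3, threshold 0.05), with 95% intervals from the SE. The fits were tested on simulated data. Alternatives were the culture as a block, DESeq2 1.42.0, other scalings, no filter, the 2 groups alone and leaving out each library. For the dose contrasts the leave-out fits had no block. Leaving out a whole culture was chosen after seeing the data. Libraries of 1 animal carry the same number, and their deviations from group means correlated in all 18 such pairs (0.177 to 0.840, median 0.505, against a median of −0.212 for different numbers). The group means were subtracted first, so a negative value for different numbers follows from a positive value for the same number. The block's values are therefore printed for the antagonists where a call changed. The lowest chi-square per degree of freedom between replicates was 12.9, far above sampling noise. Intervals on counts cover counting error only. Exon lengths and overlaps come from GENCODE M21, which holds 24902 of the 25210 gene identifiers.

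Every member is named, as are listed genes past the filter and the 2 genes most like each tested member, except where a gene is not reported here. The members, gene lists and markers were chosen with earlier results of these data known.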

Additional observations from a re-analysis of the deposited data

How the results depend on the processing

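Of 1357 alternative values for single genes, 1225 kept direction and side of the threshold, 39 passed it newly, 43 no longer passed it and 50 changed sign. None of those 50 was called in either fit, and their lowest adjusted p was 0.338. The cause of the changes was not tested.

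The number of antagonists called was 0 at 1 µM and became 2 with the replicate block and 1 with DESeq2. It was 1 at 1.5 µM and became 5 with the block, 3 with DESeq2, 2 with only the 2 groups, 0 without culture 1, 0 without culture 2 and 3 without culture 3 in all groups, and ran from 1 to 4 when 1 library was left out. It was 2 at 3 µM and became 6 with the block, 4 with DESeq2, 1 with no filter and 0 without culture 2, and ran from 1 to 3 when 1 library was left out. From 1 to 1.5 µM it was 0 and became 3 with the block. From 1.5 to 3 µM it was 1 and became 5 with the block, and 0 with no filter, with only the 2 groups, without culture 1 and without culture 2, and ran from 0 to 1 when 1 library was left out. Slopes differed for 0 antagonists, and for 1 with DESeq2.

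Sign changes by setting were as follows (log2 fold changes). With library size only, Kremen1 was at 0.051 at 1 µM and −0.071 from 1.5 to 3 µM, and Notum at −0.048 from 1.5 to 3 µM. That scaling moved the median of all genes to −0.23 at 3 µM and −0.28 from 1.5 to 3 µM, and the share of calls that were higher from 51.9% to 38.6% and from 57.2% to 21.4%. With DESeq2 size factors Kremen1 was at −0.0015 at 1.5 µM and Apcdd1 at −0.0085 from 1 to 1.5 µM, and with DESeq2 at −0.0016 and −0.0067. Without culture 1, Apcdd1 was at −0.046 from 1 to 1.5 µM, Dkk3 at 0.0054 from 1.5 to 3 µM and Lrp5 at 0.083 at 3 µM. Without culture 2, Apcdd1 was at 0.15 at 1 µM, 0.11 at 1.5 µM and −0.046 from 1 to 1.5 µM, Draxin at 0.0029 at 3 µM and Dkk3 at 0.015 from 1.5 to 3 µM. Without culture 3, Kremen1 was at −0.050 at 1.5 µM and −0.017 from 1 to 1.5 µM, Sostdc1 at 0.23 at 3 µM and Notum at −0.14 from 1.5 to 3 µM.

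The fits that left out 1 library had no block, so the groups then held different sets of cultures. Within cultures, Sfrp2 was lower in all 3 at 1 and 1.5 µM against DMSO and from 1 to 1.5 µM. When 1 library was left out, values that changed sign ran as follows. At 1 µM Dkk2 ran from −0.93 to 0.15, Sfrp2 from −2.65 to 1.88, Kremen1 from −0.19 to 0.092 and Apcdd1 from −0.59 to 0.053. At 1.5 µM Sfrp2 ran from −5.18 to 0.16, Kremen1 from −0.20 to 0.16 and Apcdd1 from −0.54 to 0.056. At 3 µM Dkk2 ran from −1.11 to 0.17, Sostdc1 from −0.98 to 0.45, Draxin from −1.57 to 0.37 and Lrp5 from −0.15 to 0.050. From 1 to 1.5 µM Sfrp2 ran from −4.70 to 0.45, Kremen1 from −0.18 to 0.22 and Apcdd1 from −0.15 to 0.31. From 1.5 to 3 µM Dkk3 ran from −1.71 to 0.54, Notum from −0.31 to 0.90 and Apcdd1 from −0.80 to 0.033.

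Counts over all genes moved most at 1 µM, where 37 became 859 with the block, 470 with DESeq2 and 0 with only the 2 groups, and at 1.5 against 1 µM, where 831 became 3352, 1610 and, with no filter, 494. The block raised 4177 to 7146 at 1.5 µM and 4545 to 7148 from 1.5 to 3 µM, where only the 2 groups gave 2852. Leaving out 1 library gave 3 to 50, 2462 to 5085, 135 to 1508, 2962 to 5682 and, between cultures, 2658 to 5861. Without culture 1 and without culture 2, all-gene counts were 3 and 0 at 1 µM, 1539 and 457 at 1.5 µM, 0 and 0 from 1 to 1.5 µM, and 1171 and 345 from 1.5 to 3 µM. At 3 µM 8813 became 4769 without culture 2. Slopes gave 2 genes with no filter and 224 with DESeq2. Depth limits Dkk2, Notum and Sfrp4, which had at most 19 counts in any library.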
